A study of Rattus norvegicus with 18 samples.

Results

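Proximal sciatic nerve taken 9 h after transection was compared with nerve taken at 0 h, on 3 arrays of each, which are 6 of the 18 arrays of a time course with 6 time-points. All groups were adult male Sprague-Dawley rats of 180 to 220 g in which 1 cm of the left sciatic nerve had been resected, and a 0.5 cm stump of the side still joined to the spinal cord was collected. The label of the 0 h group names the same resection, so that 0 h stands for nerve collected when it was cut, and no sham-operated group was used here. The sources used here do not state whether an array holds RNA of 1 rat or of a pool, so that P-values measure the spread between these arrays, which may be technical in part. The arrays were Agilent arrays of 1 colour, on which the brightness of a probe of 60 bases stands for the amount of its transcript. The study asked which signals of inflammation and survival act in the injured nerve during the first hours.

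Cutting a peripheral nerve separates axons from their targets, and the Schwann cells that wrap them leave the myelinating state for a repair state. In the same hours Schwann cells, fibroblasts and resident macrophages of the nerve release cytokines and chemokines, small secreted proteins that act through receptors on neighbouring cells and draw leukocytes from the blood. Neutrophils are known as the first to arrive, followed by monocytes that become macrophages and clear myelin debris. A nerve segment holds axons but not the nuclei of the neurons, so that its RNA comes mostly from these non-neuronal cells.

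Levels are given as log2 of the processed signal relative to the 75th percentile of the same array, so that a difference of 1 is a doubling, and levels of different probes are not compared. Over the probes that entered the test, arrays of 0 h correlated with each other at 0.985 to 0.992 and arrays of 9 h at 0.976 to 0.992. Arrays of 0 h had a median signal between 145.2 and 163.2, with 74.3% to 76.9% of spots well above background, and arrays of 9 h one between 193.9 and 264, with 79.3% to 86.4%. All 0 h arrays were scanned on 1 day and shared 1 slide, while 2 of the 9 h arrays were scanned on a second day and the remaining 1 on another day. The 9 h arrays lay on other slides than those of 0 h and of 1 h. For 9 h against 0 h, time therefore cannot be told apart from scan day or slide. The 3 arrays of 1 h share the second day with 2 of the 9 h arrays, and the change of 9 h against 1 h over those 5 arrays is given beside that against 0 h. In that comparison time and slide cannot be told apart. Both comparisons use the same 9 h arrays.

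The tissue label was borne out by its markers. All 22 Schwann cell and myelin markers found on the array were well above background, and their summed level (linear signal over the 75th percentile) was 936, 1030 and 1120 on the 0 h arrays and 746, 847 and 755 on the 9 h arrays. In bulk tissue fewer cells of a type and less RNA per cell cannot be told apart. Skeletal muscle markers set 2 arrays apart. Their summed level was 2010, 120 and 170 on 0 h replicates 1, 2 and 3, and 162, 6.43 and 84.2 on 9 h replicates 1, 2 and 3. The transcript of skeletal actin, Acta1, read 7.57, 3.02 and 3.49 on the 0 h arrays and 3.48, -2.84 and 2.09 on the 9 h arrays. None of the 14 tested muscle markers was called in limma (0 passed an unadjusted P-value of 0.05), and the named calls that were lost without 0 h replicate 1 and 9 h replicate 2 are given as such.

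**Figure D1:**
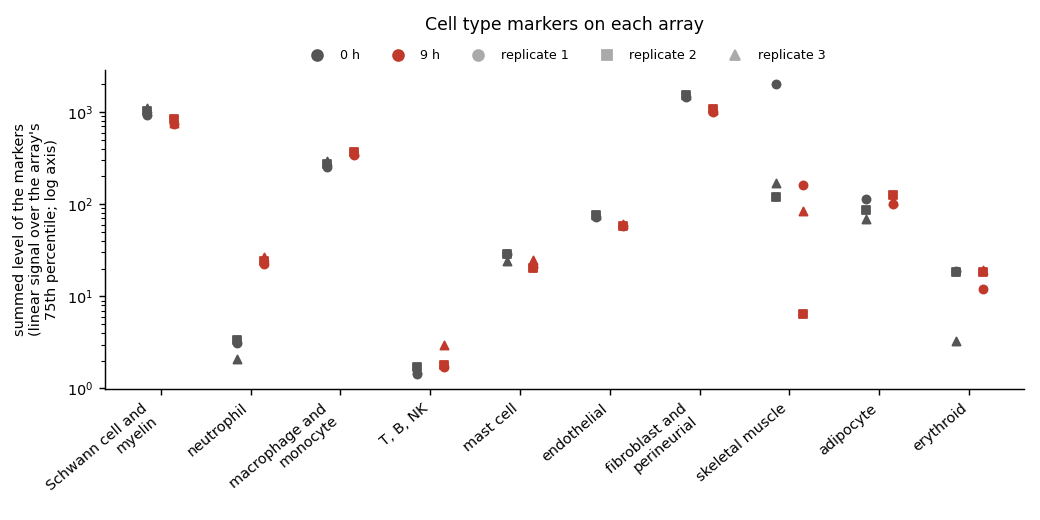
Summed level of the markers of each cell type (linear signal over the array's 75th percentile, log axis) on each of the 3 arrays of 0 h (grey) and 9 h (red), with the symbol giving the replicate. Neutrophil markers lie between 2.11 and 3.4 at 0 h and between 22.3 and 26.8 at 9 h, while skeletal muscle markers range from 6.43 to 2010 without a separation by time.

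A call required that a probe of the gene pass P-value limits in limma of 0.01 before and 0.05 after Benjamini-Hochberg adjustment. Of 27187 genes tested, 8885 (32.7%) were called, 4609 (17%) higher at 9 h and 4316 (15.9%) lower, with a gene counted in both where its probes disagreed. Counts of called list members below are to be read beside these shares. With the unadjusted limit replaced by a 2-fold change, 2696 genes were higher and 579 lower. The median change of all genes was 0.0145 on the log2 scale. With arrays shifted to a common median the median of all genes was -0.156 and 35.6% of the calls were higher, against 51.6% in the values used here. With normexp background correction in place of the processed signal 2796 genes were called, 1330 higher and 1466 lower, and 135 of 317 called genes followed singly lost their call. That correction added an offset of 50 to each signal, which makes the log2 changes of dim probes smaller. Changes also followed brightness. Genes in the dimmest sixth had a median change of 0.53 and those in the brightest sixth one of -0.156, against 0.0167 and -0.0342 after quantile normalization. For several small falls of abundant transcripts the loss of a call after quantile normalization is therefore given below. Against 1 h on the shared scan day 5945 genes (21.9%) were called, 2952 (10.9%) higher and 3007 (11.1%) lower.

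The 15 largest rises among genes well above background on all 6 arrays included the chemokines Cxcl3, Cxcl2, Ccl2 and Cxcl1, the interleukin-1 family genes Il1rl1, Il1r2 and Il1rn, the calgranulins S100a8 and S100a9 of neutrophils, and neuregulin-1. The others were Fosl1, Vgf, Ptx3, Dio3 and Fcnb. Cxcl3, a chemokine that attracts neutrophils, read -5.79, -5.24 and -5.27 on the 0 h arrays and 2.39, 2.47 and 2.78 on the 9 h arrays, and its log2 change was 7.98 (SE 0.32, adjusted p = 1.89e-09), which is 252-fold. Il1rl1, the receptor of the alarmin interleukin-33, read -3.82, -3.26 and -4.56 on the 0 h arrays and 2.94, 2.78 and 3.82 on the 9 h arrays, with a change of 7.06 (SE 0.38, adjusted p = 4.04e-08) in the brighter of its 2 probes, the one that was called. On both genes every 9 h array lay above every 0 h array, which the rule of this ranking required. Over all genes tested, 53.5% had the 3 arrays of one group on the same side of all 3 of the other.

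**Figure D2:**
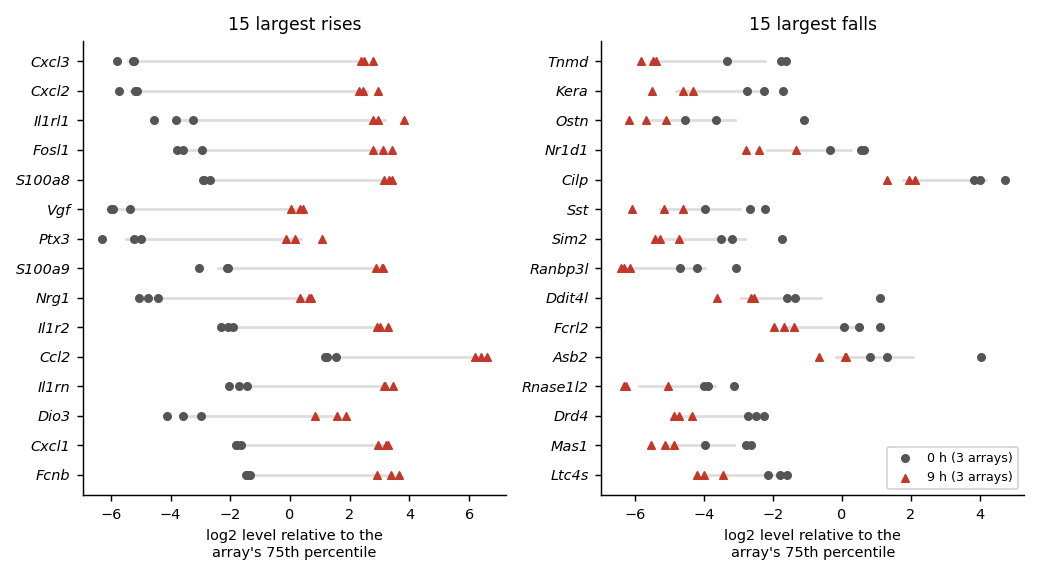
Log2 level relative to the array's 75th percentile on each array of 0 h (grey circles) and 9 h (red triangles), for the 15 called genes with the largest rise and the 15 with the largest fall among genes that all 6 arrays measured above background and whose groups do not overlap. Rises reach 7.98 for Cxcl3, and Ostn, Ddit4l and Asb2 have 1 array of 0 h above the other 2.

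Chemokines of the CXC class bind receptors on neutrophils and lymphocytes. Of 15 listed CXC and CX3C chemokines 14 were tested, and 6 rose while none fell (median change 1.52). Of the 14, 3 were well above background on every 9 h array but not on every 0 h array. Cxcl2, which acts on the same neutrophil receptor as Cxcl3, read -5.18, -5.75 and -5.14 on the 0 h arrays and 2.45, 2.31 and 2.94 on the 9 h arrays and changed by 7.92 (SE 0.25, adjusted p = 1.49e-10). Cxcl1, the third of this group, read -1.82, -1.79 and -1.64 on the 0 h arrays and 3.28, 2.93 and 3.20 on the 9 h arrays and changed by 4.89 (SE 0.20, adjusted p = 1.89e-09). All 3 genes stood far above their 0 h level on every 9 h array. Cxcl6 was not well above background on any 0 h array and was at least 5.49-fold higher at 9 h (adjusted p = 4.6e-06), a call lost with normexp background correction. Cxcl14 rose by 4.29 and the platelet chemokine Ppbp, well above background on 2 of the 0 h arrays, by 1.64. Its change was 0.497 with normexp background correction, without a call (adjusted p = 0.829 in limma). The interferon-driven members Cxcl9, Cxcl10 and Cxcl11 were not called, with changes of -0.23, 1.40 and 1.95, nor was Cxcl12 (-0.02). Cxcl11 stayed uncalled in 18 of 23 alternatives.

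CC chemokines draw mainly monocytes and lymphocytes. Of 18 tested, 10 rose and 1 fell (55.6% and 5.56% beside 17% and 15.9% over all genes, median 1.76). Of the 18, 4 were well above background on every 9 h array but not on every 0 h array. Ccl2, the main attractant of monocytes, was already bright at 0 h and read 1.17, 1.23 and 1.55 on the 0 h arrays and 6.41, 6.21 and 6.60 on the 9 h arrays, a change of 5.09 (SE 0.23, adjusted p = 9.29e-09). Ccl20, which binds the receptor Ccr6, was not well above background at 0 h and was at least 60.6-fold higher at 9 h (adjusted p = 5.71e-07). Its lowest log2 change under the alternatives was 3.743, below the bound of 5.921 on that scale, with the call kept in all 23. Ccl7 and Ccl12, both ligands of the monocyte receptor Ccr2, rose by 4.28 (SE 0.36) and 4.32 (SE 0.81). Ccl27 fell by 0.57. With normexp background correction 6 CC chemokines were higher. Among 10 tested chemokine receptors 3 rose, among them Ccr1 (2.48) and Ccr7 (2.14). Ccr7 was well above background on 1 of the 0 h arrays, and with normexp background correction its change was 0.75, without a call (adjusted p = 0.653 in limma). The lymphocyte receptor Cxcr3 changed by 0.22 and was not called.

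The promoters of 4 of the genes that rose most are shown because they hold a match to the NF-kB motif, the binding sequence of a transcription factor family that drives inflammatory genes. They are the 150 bases before the transcription start, from RefSeq on the GRCr8 build, written 5′ to 3′ on the strand of the gene in lower case with the matched bases in capitals. Il6 lies on the minus strand of chr4:5894576-5894725, Cxcl2 on the minus strand of chr14:17467256-17467405, Ccl20 on the plus strand of chr9:91837009-91837158 and Cxcl1 on the minus strand of chr14:17479322-17479471.
Il6: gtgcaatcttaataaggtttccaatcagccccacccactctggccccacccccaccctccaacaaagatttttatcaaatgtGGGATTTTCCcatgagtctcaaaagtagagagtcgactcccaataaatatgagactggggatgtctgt
Cxcl2: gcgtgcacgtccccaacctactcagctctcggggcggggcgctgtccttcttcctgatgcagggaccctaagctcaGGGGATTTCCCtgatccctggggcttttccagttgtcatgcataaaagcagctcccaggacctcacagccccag
Ccl20: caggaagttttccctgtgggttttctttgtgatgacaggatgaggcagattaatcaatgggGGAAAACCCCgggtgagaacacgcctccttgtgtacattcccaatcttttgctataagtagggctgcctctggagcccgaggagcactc
Cxcl1: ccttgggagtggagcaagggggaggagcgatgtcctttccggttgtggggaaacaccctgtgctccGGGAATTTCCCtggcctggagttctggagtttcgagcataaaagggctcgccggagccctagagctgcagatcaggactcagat
The first match starts at position -68, -74, -89 and -84 from the start in these genes, and in Cxcl2 and Cxcl1 a second match overlaps the first. These genes were chosen after their values were seen, and a match is a description of the letters. Over promoters of 300 bases, searched on both strands, the motif was in 9.6% of 11012 tested genes with a listed promoter, in 9.53% of those called higher and in 9.96% of those called lower. By list it was in 5 of 12 promoters of CXC and CX3C chemokines, 3 of 13 of CC chemokines and 8 of 11 of NF-kB subunits and inhibitors. It was in 4 of 10 of IL-6 type cytokines, colony-stimulating factors and receptors, 2 of 13 of the IL-1 family and receptors, 2 of 13 of Toll-like receptors and pathway genes, 1 of 10 of the TNF receptor pathway, 1 of 9 of neutrophil markers, 0 of 7 of chemokine receptors and 0 of 8 of complement.

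Interleukin-1 starts the inflammatory cascade, and its family holds agonists, a soluble antagonist and receptors that signal or act as decoys. Of 16 listed members 15 were tested, and 13 rose while none fell (median 1.67). Of the 15, 2 were well above background on every 9 h array but not on every 0 h array. Among agonists, Il1b read -1.40, -2.09 and -0.99 on the 0 h arrays and 2.59, 2.12 and 2.98 on the 9 h arrays, a change of 4.06 (SE 0.33, adjusted p = 2.09e-06), and Il1a, not well above background at 0 h, was at least 7.01-fold higher, a call lost with normexp background correction. The antagonist Il1rn read -1.73, -1.46 and -2.04 on the 0 h arrays and 3.17, 3.16 and 3.45 on the 9 h arrays and changed by 5.001 (SE 0.32, adjusted p = 2.76e-07). Il1r2, the decoy receptor that binds interleukin-1 without signalling, read -2.07, -2.31 and -1.92 on the 0 h arrays and 2.93, 3.03 and 3.29 on the 9 h arrays and changed by 5.18 (SE 0.26, adjusted p = 2.92e-08). The signalling receptor Il1r1 and its partner Il1rap rose by 2.03 and 1.26. Nlrp3, the sensor of the inflammasome that matures interleukin-1, rose by 1.67, while the protease Casp1 changed by 0.22 and was not called. With normexp background correction Nlrp3 and Il1r1 lost their calls as well, at changes of 0.52 and 1.11 (adjusted p = 0.833 and 0.176 in limma).

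Cytokines of the interleukin-6 type act through the shared receptor chain Il6st and the transcription factor Stat3. Of 18 tested genes of these cytokines, colony-stimulating factors and receptors 14 rose and 1 fell (median 1.37). Of the 18, 4 were well above background on every 9 h array but not on every 0 h array. Il6 itself was not well above background on any 0 h array and read 0.07, -0.02 and 0.53 at 9 h. It was at least 104-fold higher, from the lowest signal well above background on the 0 h arrays (adjusted p = 7.54e-11). The lowest log2 change of Il6 under the alternatives was 4.674, below the bound of 6.699 on that scale, with the call kept in all 23. Clcf1, a cytokine that acts through the receptor of ciliary neurotrophic factor, read -1.03, -0.96 and -1.07 on the 0 h arrays and 3.45, 3.09 and 3.59 on the 9 h arrays and changed by 4.396 (SE 0.17, adjusted p = 1.43e-09). Lif, a Schwann cell product, rose by 1.29, a call that was lost without 9 h replicate 3, and by 0.74 without 0 h replicate 1, while Cntf, the neurotrophic member stored in Schwann cells, changed by 0.05 (SE 0.16) and was not called. Downstream, the feedback inhibitor Socs3 rose by 3.51, Osmr by 2.47 and Stat3 by 1.45. Csf3 and Csf2, which mobilise neutrophils and support myeloid cells, were at least 2.23-fold and 4.88-fold higher. With normexp background correction 8 members were higher, and Csf3 and Csf2 lost their calls, at changes of 0.496 and 0.85 (adjusted p = 0.823 and 0.49 in limma).

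Neutrophil markers rose nearly throughout. Of 18 listed 13 were tested, and 12 rose (median 4.22). Of the 13, 5 were well above background on every 9 h array but not on every 0 h array. Over neutrophil markers well above background on every array compared, 7 were higher. S100a8, a calgranulin of the neutrophil cytosol, read -2.70, -2.88 and -2.92 on the 0 h arrays and 3.14, 3.32 and 3.41 on the 9 h arrays, a change of 6.12 (SE 0.37, adjusted p = 1.58e-07). Its partner S100a9 read -2.10, -2.07 and -3.06 on the 0 h arrays and 2.87, 3.09 and 3.11 on the 9 h arrays, a change of 5.44 (SE 0.42, adjusted p = 1.14e-06). On both genes the groups were far apart. Csf3r, the receptor of granulocyte colony-stimulating factor, rose by 4.22, and the collagenase Mmp8 of neutrophil granules was at least 16.4-fold higher. Under the alternatives the lowest log2 changes of Csf3r and Mmp8 were 2.508 and 1.999, with both calls kept throughout. The chemokine receptor Cxcr2 was well above background on 1 of the 0 h arrays and was called under all 23 alternatives that tested it, with a change of 4.62 here and of 2.11 with normexp background correction. Mpo, an enzyme of primary granules made in the bone marrow, changed by 0.19 and was not called. The summed level of the 13 markers ranged from 2.11 to 3.4 on arrays of 0 h and from 22.3 to 26.8 on arrays of 9 h.

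Of 20 tested markers of macrophages and monocytes 10 rose and 2 fell (50% and 10% beside 17% and 15.9% over all genes, median 0.797). The inhibitory Fc receptor Fcgr2b rose by 3.05, the scavenger receptor Msr1 by 2.75, the endotoxin co-receptor Cd14 by 2.15 and the monocyte receptor Ccr2 by 2.02, a call of Ccr2 that was lost with normexp background correction. Adgre1, the F4/80 antigen of tissue macrophages, fell and read 0.48, 0.58 and 0.52 on the 0 h arrays and -0.55, -0.37 and -0.22 on the 9 h arrays, a change of -0.91 (SE 0.20, adjusted p = 0.00343), and the class II chaperone Cd74 changed by -0.57 (SE 0.15, adjusted p = 0.0108), a call that was lost without 0 h replicate 2, without 0 h replicate 1 and 9 h replicate 2, and after quantile normalization. The complement genes C1qa and C1qb, made by macrophages, changed by -0.38 and -0.23 and were not called. Among 10 tested markers of T, B and NK cells 4 rose, with Cd8a at 3.36 (SE 0.48, adjusted p = 0.000185) and Cd2 at 2.29, whereas Cd3g (-0.25) and Cd4 (-0.53) were not called. Cd2 was well above background on 1 of the 0 h arrays and lost its call after quantile normalization and without 0 h replicate 1 and 9 h replicate 2, and with normexp background correction neither Cd8a nor Cd2 was called. Without 0 h replicate 1 and 9 h replicate 2, 2 of the T, B and NK cell markers were higher. Of 9 mast cell markers none was called in limma, and 3 passed an unadjusted P-value of 0.05. Fcnb, a ficolin made by myeloid cells, was among the largest rises and read -1.45, -1.34 and -1.49 on the 0 h arrays and 3.37, 2.92 and 3.64 on the 9 h arrays.

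Lectin receptors of myeloid cells and an antimicrobial lectin were among genes not well above background at 0 h. Clec4d and Clec4e, which recognise fungal and bacterial glycolipids, were at least 30.5-fold and 23.1-fold higher, Clec4b2 at least 14.2-fold and the myeloid membrane protein Mcemp1 at least 36.9-fold. Reg3g, a secreted lectin that kills Gram-positive bacteria, was at least 30.1-fold higher and read -1.78, -1.64 and -1.36 at 9 h. The call of Clec4b2 was lost with normexp background correction. Leukocyte adhesion genes rose in 6 of 10 tested and fell in 1, led by the integrin chain Itgb2 (2.19) and by Cd44 (1.91). On the vessel side, P-selectin, Selp, was at least 3.56-fold higher, and Icam1, which binds leukocyte integrins, read 2.14, 2.02 and 2.46 on the 0 h arrays and 3.79, 3.68 and 4.01 on the 9 h arrays, a change of 1.62 (SE 0.18, adjusted p = 2.08e-05). The call of Selp was lost with normexp background correction, at a change of 0.60 (adjusted p = 0.773 in limma). Vcam1 changed by -0.22 and was not called. Of 12 endothelial markers 1 rose and 3 fell (median -0.115), which is 8.33% and 25% beside 17% and 15.9% over all genes. Cldn5, Kdr and Emcn fell by 0.56, 0.58 and 0.63, and with normexp background correction Cldn5 was not called. Eng, a co-receptor of the TGF-beta family, rose by 1.07, a call that was kept in 21 of 24 alternatives and lost without 0 h replicate 3 or 9 h replicate 3 and with an adjusted P-value under 0.01. Toll-like receptors and pathway genes rose in 8 of 17 tested and fell in 1 (5 higher after quantile normalization), with Tlr2 at 2.41 and Tlr3, the sensor of double-stranded RNA, at -1.05.

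Tumor necrosis factor, its receptors and the caspases below them were the pathway the study followed. Of 16 tested members 7 rose and 2 fell (median 0.393), and the list came from the study, which chose it on these samples, so that its direction is not independent evidence. Tnf was not well above background at 0 h and was at least 1.83-fold higher at 9 h (adjusted p = 0.00298). That call was lost with normexp background correction. Tnfrsf1a, the type 1 receptor, which carries a death domain, read 2.71, 3.14 and 3.04 on the 0 h arrays and 4.03, 4.01 and 3.95 on the 9 h arrays, a change of 1.04 (SE 0.15, adjusted p = 0.0002). Tnfrsf1b, the type 2 receptor, read -0.32, 0.02 and -0.49 on the 0 h arrays and 1.35, 1.09 and 1.55 on the 9 h arrays, a change of 1.59 (SE 0.22, adjusted p = 0.000118). The cellular inhibitors of apoptosis are ubiquitin ligases recruited to these receptors. Of them Birc2 read -0.92, -1.02 and -0.89 on the 0 h arrays and 0.18, 0.12 and 0.12 on the 9 h arrays, a change of 1.08 (SE 0.09, adjusted p = 2.56e-06), and Birc3 read -1.45, -1.55 and -1.41 on the 0 h arrays and 0.19, -0.02 and 0.33 on the 9 h arrays, a change of 1.64 (SE 0.25, adjusted p = 0.000283). Every 9 h array of these 4 genes lay above every 0 h array, a separation that 53.5% of all genes tested had in one direction or the other. Xiap, the inhibitor that binds caspases directly, fell and read -0.73, -0.50 and -0.58 on the 0 h arrays and -0.83, -0.78 and -0.98 on the 9 h arrays, a change of -0.26 (SE 0.08, adjusted p = 0.0261). Casp6, a caspase of apoptosis, fell as well, with a change of -0.41 (SE 0.12, adjusted p = 0.0175). The calls of Xiap and Casp6 were lost when either of 0 h replicates 2 and 3 or of 9 h replicates 1 and 3 was left out.

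NF-kB subunits and inhibitors rose in 8 of 13 tested and fell in none (median 0.538, 4 higher with normexp background correction). Bcl3, an atypical inhibitor in the nucleus, rose by 2.13, Nfkbiz by 1.39 and the subunit Rel by 1.36, while the main cytosolic inhibitor Nfkbia changed by 0.19 and the subunit Rela by 0.19, neither called. In the BCL-2 family, whose members promote or block the release of cytochrome c, 5 of 15 rose and 2 fell, which is 33.3% and 13.3% beside 17% and 15.9% over all genes. The survival genes Bcl2a1 and Mcl1 rose by 1.91 and 1.00, as did the death agonist Bid (1.52), the call of Bcl2a1 being lost with normexp background correction, whereas the death agonist Hrk fell by 1.77 in 1 of 2 probes (adjusted p = 0.000993) and Bcl2 changed by -0.03 without a call.

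**Figure D3:**
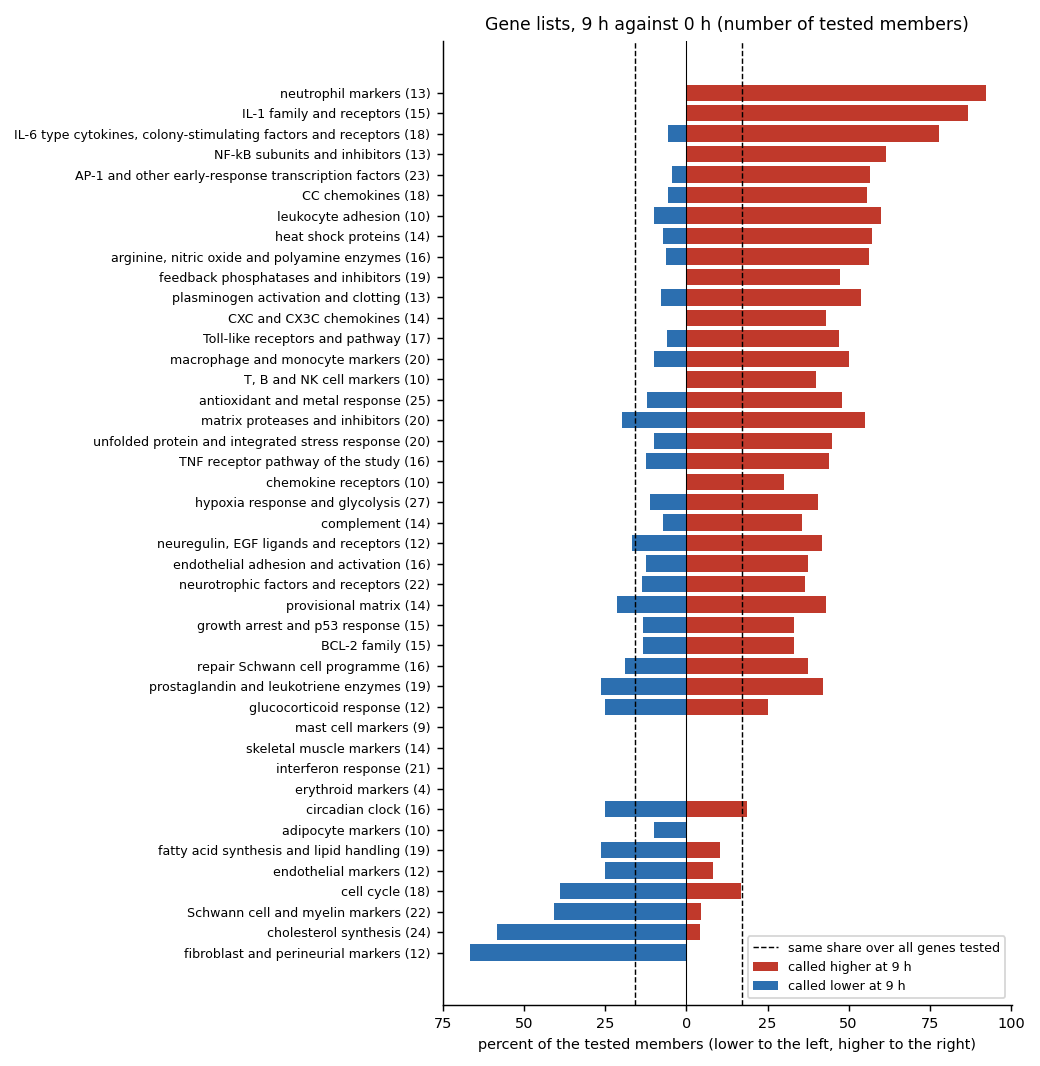
Percent of the tested members of each gene list (their number in parentheses) that were called higher (red, to the right) or lower (blue, to the left) at 9 h, with dashed lines at the shares over all genes tested, 17% and 15.9%. Neutrophil markers (12 of 13 higher) and the IL-1 family (13 of 15) stand at one end, and fibroblast and perineurial markers (8 of 12 lower) and cholesterol synthesis (14 of 24 lower) at the other.

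Immediate early genes, which are switched on within minutes of a stimulus and shut off again, were compared with both references. Of 23 early-response transcription factors 13 rose against 0 h and 1 fell (56.5% and 4.35% beside 17% and 15.9% over all genes, median 0.978). Against 1 h on the shared scan day 2 were higher and 14 lower, where 10.9% and 11.1% of all genes were (median -0.867, beside -0.0683 over all genes). Fos, a subunit of the AP-1 factor, read -1.60, -0.10 and -1.59 on the 0 h arrays and 1.47, 1.40 and 1.502 on the 9 h arrays, and its change was 2.56 (SE 0.33, adjusted p = 8.22e-05) against 0 h and -2.90 (SE 0.38, adjusted p = 0.000274) against 1 h. Egr1, a zinc finger factor of growth signals, changed by 0.98 and -3.02, and Atf3, a stress factor tied to axon injury, by 0.50 and -1.72. Jun read 2.98, 3.33 and 2.71 on the 0 h arrays and 2.97, 2.79 and 3.04 on the 9 h arrays and was not called against 0 h (-0.07), while it was lower than at 1 h, at -2.01 (SE 0.18, adjusted p = 2.35e-05). All 4 genes were lower at 9 h than at 1 h. Against 0 h the call of Fos held under every alternative, that of Egr1 was lost when any array but 0 h replicate 2 or 9 h replicate 2 was left out, and that of Atf3 was lost without 0 h replicate 1 and 9 h replicate 2 and with arrays shifted to a common median. Fosl1, a later partner of Jun in AP-1, differed from them and read -2.96, -3.58 and -3.79 on the 0 h arrays and 3.11, 2.78 and 3.41 on the 9 h arrays, with changes of 6.55 (SE 0.26, adjusted p = 1.89e-09) against 0 h and 4.56 against 1 h. Jund fell against both references, by 0.83 and 1.27.

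Feedback inhibitors damp kinase signalling and destroy unstable mRNAs. Of 19 tested 9 rose against 0 h and none fell, with 47.4% higher beside 17% over all genes (4 higher with normexp background correction). Against 1 h 1 was higher and 5 lower, where 10.9% and 11.1% of all genes were. Dusp1, a phosphatase of stress kinases, changed by 0.02 against 0 h without a call and by -2.88 (SE 0.33, adjusted p = 0.000116) against 1 h. Dusp5, which acts on ERK in the nucleus, rose by 3.04 against 0 h and changed by 0.37 against 1 h without a call. Zfp36, which destroys cytokine mRNAs, rose by 2.62 against 0 h and was lower than at 1 h (-1.37). Its lowest change against 0 h under the alternatives was 1.366, with the call kept in all 24.

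The chemokines did not share 1 order between the references. Cxcl1 was lower at 9 h than at 1 h, at -1.46 (SE 0.23, adjusted p = 0.000872), and Cxcl2 changed by -0.12 without a call (adjusted p = 0.817), while Cxcl3 was higher by 4.61 (SE 0.36, adjusted p = 7.49e-06). Ccl2 and Ccl7 were higher than at 1 h by 1.23 and 1.67, and Il6 by 1.34. Il1rl1, Nrg1, Clcf1 and Vgf were also higher than at 1 h, by 6.75, 4.96, 4.23 and 6.47. Neutrophil markers had a median of 2.04 against 1 h, with 8 higher. These differences lie within 1 scan day, but the 9 h arrays lay on another slide than those of 1 h. They rest on 2 arrays of 9 h, and with either left out the lone 9 h array is assumed to vary like the other groups.

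**Figure D4:**
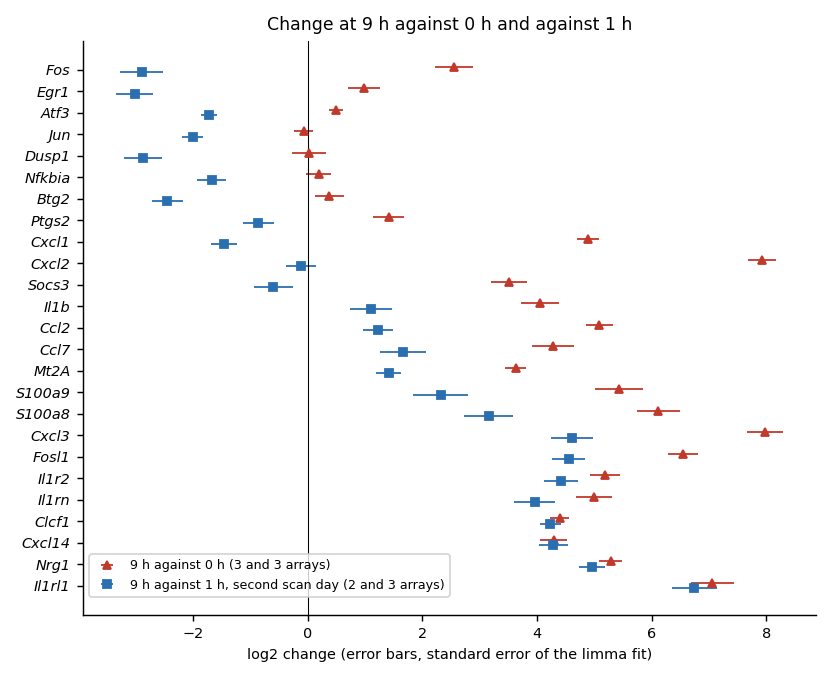
Log2 change at 9 h against 0 h (red triangles, 3 and 3 arrays) and against 1 h on the shared scan day (blue squares, 2 arrays of 9 h and 3 of 1 h) with the standard error of the limma fit, for genes chosen after their values were seen. Fos lies at 2.56 against 0 h and -2.90 against 1 h, whereas Il1rl1 lies at 7.06 and 6.75, and both comparisons use the same 9 h arrays.

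Neuregulin-1, the axonal and glial ligand of ErbB receptors that sets Schwann cell survival and myelination, read -5.04, -4.43 and -4.74 on the 0 h arrays and 0.62, 0.32 and 0.70 on the 9 h arrays, a change of 5.29 (SE 0.20, adjusted p = 1.43e-09), with both probes of the gene called. Of 12 tested ligands and receptors of the neuregulin and EGF family 5 rose and 2 fell (median 0.17). That is 41.7% and 16.7% beside 17% and 15.9% over all genes. Of the 12, 3 were well above background on every 9 h array but not on every 0 h array. Over genes well above background on all arrays compared, the median of neuregulin, EGF ligands and receptors was -0.154, with 2 higher and 2 lower. Areg was at least 9.96-fold and Ereg at least 4.09-fold higher, calls lost with normexp background correction, and Hbegf rose by 1.06, while Tgfa and Egf fell by 1.07 and 0.71. The call of Egf was lost without 9 h replicate 1, and without 0 h replicate 1 and 9 h replicate 2, and its change was -0.41 without 0 h replicate 1 alone. The receptors Egfr, Erbb2 and Erbb4 changed by -0.40, 0.45 and -0.11 and were not called. Ngfr, the neurotrophin receptor that Schwann cells display after injury, read 0.45, 0.74 and 0.25 on the 0 h arrays and 1.54, 1.12 and 1.69 on the 9 h arrays, a change of 0.97 (SE 0.18, adjusted p = 0.00104). Among 22 neurotrophic factors and receptors 8 rose and 3 fell, which is 36.4% and 13.6% beside 17% and 15.9% over all genes. Those that fell were Ntf3 (neurotrophin-3, -0.92), its receptor Ntrk3 (-0.91) and Ret (-1.29, in 2 of 4 probes), the signalling receptor of GDNF. Of the 2 probes of Gdnf, a survival factor for motor neurons, the brighter changed by 0.73 and the other was called higher, and Bdnf changed by 1.30 without a call. The call of Ntf3 was lost without 0 h replicate 1 or 3 or 9 h replicate 1 or 2. Vgf, the precursor of secreted neuropeptides, and Dio3, which inactivates thyroid hormone, were both among the largest rises, at 6.03 (SE 0.31, adjusted p = 3.07e-08) and 4.99 (SE 0.39, adjusted p = 1.24e-06).

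Of 16 tested genes of the repair Schwann cell programme 6 rose and 3 fell (median 0.0696), which is 37.5% and 18.8% beside 17% and 15.9% over all genes, and without 0 h replicate 1 and 9 h replicate 2 the number of genes of the repair Schwann cell programme that were higher was 2. Gfap, the filament protein of immature and repair Schwann cells, read -4.54, -4.29 and -4.11 on the 0 h arrays and -0.78, -0.85 and -0.65 on the 9 h arrays, a change of 3.55 (SE 0.19, adjusted p = 4.04e-08). Shh, a hedgehog ligand, was well above background on 2 of the 0 h arrays and read -5.84, -6.96 and -6.38 on the 0 h arrays and -3.50, -3.73 and -2.69 on the 9 h arrays and changed by 3.09 (SE 0.43, adjusted p = 0.000133). Its call was lost with normexp background correction, at a change of 1.24 (adjusted p = 0.307 in limma). Ptch1, the hedgehog receptor and a target of the pathway, rose by 1.40 in 1 of 2 probes, a call kept in 14 of 24 alternatives and lost without any one of the 0 h replicates or without 9 h replicate 3, when its change was 0.86. By contrast Hhip, a membrane protein that binds and blocks hedgehog ligands, fell and read -0.72, -0.79 and -1.23 on the 0 h arrays and -2.99, -2.46 and -2.68 on the 9 h arrays, a change of -1.80 (SE 0.20, adjusted p = 3e-05). Gli1, a hedgehog target, fell by 0.46 in 1 of 3 probes, a call that was lost without 0 h replicate 3, and the Schwann cell factor Olig1 by 0.94, a call lost with normexp background correction. Gap43, a growth cone protein that repair cells also make, changed by -0.63 and the filament gene Vim by 0.05, neither called.

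Enzymes that open the matrix and their inhibitors rose in 11 of 20 tested and fell in 4 (median 1.07). That is 55% and 20% beside 17% and 15.9% over all genes, and 5 were higher with normexp background correction. Of the 20, 4 were well above background on every 9 h array but not on every 0 h array. Mmp3, the protease stromelysin, read -6.96, -6.35 and -6.04 on the 0 h arrays and -0.59, -1.51 and 0.12 on the 9 h arrays, a change of 5.79 (SE 0.55, adjusted p = 7.37e-06). It was well above background on 1 of the 0 h arrays, and with normexp background correction it was still called, with a change of 3.45. Mmp9, a gelatinase of leukocytes and Schwann cells, was at least 23.4-fold higher and the macrophage elastase Mmp12 at least 6.67-fold, a call of Mmp12 that was lost with normexp background correction. The inhibitor Timp1 rose by 1.58, while Timp2 fell by 0.51 and the constitutive gelatinase Mmp2 by 0.36, both lost after quantile normalization and that of Mmp2 also without 0 h replicate 1 or 2 or 9 h replicate 1 or 2. In the plasminogen system, which dissolves fibrin, the urokinase receptor Plaur read -2.53, -2.74 and -3.16 on the 0 h arrays and -0.07, -0.13 and 0.44 on the 9 h arrays, a change of 2.89 (SE 0.28, adjusted p = 7.95e-06), and the inhibitor Serpinb2 was at least 18.1-fold higher. Of the 13 tested genes of that system 7 rose and 1 fell. For the provisional matrix, in which cells migrate after injury, Ptx3, a pentraxin that crosslinks hyaluronan, read -4.997, -5.24 and -6.29 on the 0 h arrays and 0.16, -0.13 and 1.07 on the 9 h arrays and changed by 5.88 (SE 0.50, adjusted p = 2.59e-06), the hyaluronan synthase Has1 rose by 3.56 and Tnc, tenascin-C, by 2.01. Postn fell by 1.04, a call that was lost without 0 h replicate 1 and 9 h replicate 2.

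A match to the AP-1 motif TGANTCA, the binding sequence of Fos and Jun dimers, stood in 5 of 14 promoters of matrix proteases and inhibitors, 4 of the 8 called higher and none of the 3 called lower. In other lists it was in 3 of 8 promoters of plasminogen activation and clotting, 3 of 12 of CXC and CX3C chemokines, 2 of 13 of the IL-1 family and receptors, 1 of 13 of CC chemokines and 0 of 9 of neutrophil markers. It was in 5.63% of all 11012 promoters of 300 bases, 7.77% of those of genes called higher and 4.38% of those called lower. The 4 promoters of genes that rose are shown in the same way as above. They are all on the plus strand, Mmp3 at chr8:12925131-12925280, Mmp12 at chr8:12866502-12866651, Mmp7 at chr8:13132893-13133042 and Mmp13 at chr8:12782679-12782828.
Mmp3: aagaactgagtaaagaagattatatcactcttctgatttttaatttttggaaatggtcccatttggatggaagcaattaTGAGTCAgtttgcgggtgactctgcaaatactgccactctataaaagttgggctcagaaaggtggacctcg
Mmp12: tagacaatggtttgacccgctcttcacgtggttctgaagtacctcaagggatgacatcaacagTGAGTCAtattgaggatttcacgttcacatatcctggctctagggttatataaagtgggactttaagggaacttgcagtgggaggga
Mmp7: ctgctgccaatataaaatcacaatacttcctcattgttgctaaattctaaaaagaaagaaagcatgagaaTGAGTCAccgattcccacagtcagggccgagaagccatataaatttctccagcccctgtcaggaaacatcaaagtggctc
Mmp13: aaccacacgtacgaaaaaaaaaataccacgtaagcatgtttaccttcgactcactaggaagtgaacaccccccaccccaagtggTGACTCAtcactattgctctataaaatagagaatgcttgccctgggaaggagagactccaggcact
The match starts at position -71, -87, -80 and -66, and in Mmp3, Mmp12 and Mmp7 it has the same letters. The collagenase Mmp13 rose by 1.84, a call lost with normexp background correction, and the matrilysin Mmp7, not well above background at 0 h, was at least 2.43-fold higher, a call lost after quantile normalization and when 0 h replicate 1 or 2 or 9 h replicate 2 or 3 was left out. The other motifs searched were the cyclic AMP element TGACGTCA (2.87% of all promoters, 3.1% of those called higher and 2.34% of those called lower), the sterol element TCACNCCAC (1.08%, 0.972% and 0.996%), the hypoxia element ACGTG (24.2%, 25.2% and 23.8%), the metal element TGCNCNC (59%, 56.4% and 60.5%) and the clock D-box TTANGTAA (1.45%, 1.71% and 1.34%).

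Genes against oxidative and metal stress rose in 12 of 25 tested and fell in 3 (median 0.334). Hmox1, which degrades heme, read -1.07, -0.91 and -1.41 on the 0 h arrays and 2.001, 2.26 and 3.02 on the 9 h arrays, a change of 3.56 (SE 0.30, adjusted p = 2.34e-06), and Mt2A, a metallothionein that binds zinc and copper, read 2.23, 2.07 and 1.74 on the 0 h arrays and 5.69, 5.49 and 5.75 on the 9 h arrays, a change of 3.63 (SE 0.19, adjusted p = 2.92e-08). Sod2, the superoxide dismutase of mitochondria, rose by 2.19, while the extracellular form Sod3 fell by 0.79. Among enzymes of arginine and nitric oxide 9 of 16 rose and 1 fell. Nos2, the inducible nitric oxide synthase, was at least 4.7-fold higher, but with normexp background correction it changed by 0.84 and was not called (adjusted p = 0.58 in limma). For hypoxia response and glycolysis, 11 of 27 rose and 3 fell, which is 40.7% and 11.1% beside 17% and 15.9% over all genes. The hexokinase Hk2 rose by 2.10, but by 1.05 and without a call with normexp background correction (adjusted p = 0.242 in limma). Without 0 h replicates 2 or 3 or 9 h replicate 3, 7, 7 and 6 genes of hypoxia response and glycolysis were higher. Heat shock proteins rose in 8 of 14 and fell in 1, with Hspa1a at 1.54, whose near-identical copy Hspa1b can share its probes, and the mitochondrial chaperonin Hspd1 at 0.77. Cdkn1a, the inhibitor of cyclin-dependent kinases, rose by 1.61 (SE 0.17, adjusted p = 2.04e-05).

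Enzymes of prostaglandin and leukotriene synthesis moved in opposite directions. Of 19 tested 8 rose and 5 fell, which is 42.1% and 26.3% beside 17% and 15.9% over all genes. Ptges, which makes prostaglandin E2, read -1.32, -0.92 and -1.69 on the 0 h arrays and 2.14, 1.99 and 2.40 on the 9 h arrays, a change of 3.49 (SE 0.25, adjusted p = 6.56e-07), and its inducible upstream enzyme Ptgs2 rose by 1.42 against 0 h and was lower than at 1 h (-0.86). The degrading enzyme Hpgd fell by 1.43 and the constitutive Ptgs1 by 0.79, the latter a call lost without 0 h replicate 1 and 9 h replicate 2. On the leukotriene side Ltc4s, which makes leukotriene C4, fell and read -2.15, -1.60 and -1.79 on the 0 h arrays and -4.21, -3.44 and -4.01 on the 9 h arrays, a change of -2.04 (SE 0.22, adjusted p = 2.38e-05), and Alox5 and Lta4h fell by 0.74 and 0.66. The prostaglandin receptors Ptger2 and Ptgir rose by 2.19 and 1.88, but with normexp background correction they changed by 1.27 and 1.01 and were not called (adjusted p = 0.158 and 0.295 in limma).

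Genes of cholesterol synthesis, which Schwann cells need for the myelin membrane, fell in 14 of 24 tested and rose in 1 (median change -0.508). Hmgcs1, at the entry of the pathway, read 7.02, 7.40 and 7.51 on the 0 h arrays and 6.56, 6.70 and 6.10 on the 9 h arrays, a change of -0.86 (SE 0.16, adjusted p = 0.0015). Dhcr7, the last enzyme of a branch, read 2.98, 3.72 and 3.53 on the 0 h arrays and 2.61, 2.67 and 2.49 on the 9 h arrays, a change of -0.82 (SE 0.16, adjusted p = 0.00162), and Mvd and Mvk of the mevalonate steps fell by 0.76 and 0.66. After quantile normalization the median of cholesterol synthesis was -0.384 with 10 lower, without 0 h replicate 1 and 9 h replicate 2 it was -0.732 with 16 lower, and with normexp background correction 7 were lower. With only the arrays compared in the fit 5 genes of cholesterol synthesis were lower. Against 1 h the median was -0.514, with 14 lower. Of the genes of fatty acid synthesis and lipid handling 2 of 19 rose and 5 fell, with 31.6% called in all beside 32.7% over all genes (median -0.521), with Me1 at -0.98, Elovl6 at -0.88, Fasn at -0.64 and Acly at -0.57. Angptl4, a secreted inhibitor of lipoprotein lipase, rose by 1.98 and was called under all 24 alternatives.

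Among Schwann cell and myelin markers 9 of 22 fell and 1 rose (median -0.324). Mag, an adhesion molecule of the inner myelin layer, read 2.59, 3.03 and 2.44 on the 0 h arrays and 1.57, 2.01 and 1.78 on the 9 h arrays, a change of -0.90 (SE 0.18, adjusted p = 0.0023). Pmp22, a structural protein of compact myelin, changed by -0.60 (SE 0.12, adjusted p = 0.0019), and after quantile normalization it was at -0.14 and not called. Mbp (0.01) and the identity factor Sox10 (-0.14) were not called. With that normalization the median of Schwann cell and myelin markers was -0.166 with 7 lower. Without 0 h replicate 3 or 9 h replicate 3, 5 and 4 were lower, and without 0 h replicate 1 and 9 h replicate 2, 10 were.

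Fibroblast and perineurial markers fell in 8 of 12 and rose in none (median -0.475), and after quantile normalization the median of fibroblast and perineurial markers was -0.179 with 5 lower. Their summed level lay between 1470 and 1540 on arrays of 0 h and between 1010 and 1070 on arrays of 9 h. Col1a1, the chain of the main fibrillar collagen, read 8.47, 8.54 and 8.55 on the 0 h arrays and 8.02, 8.09 and 7.95 on the 9 h arrays, a change of -0.50 (SE 0.09, adjusted p = 0.00115) that all 3 of its probes shared, and Col3a1 fell by 0.63. After quantile normalization neither was called, with Col1a1 at -0.015 and Col3a1 at -0.18. Of 33 tested collagens 14 fell and 5 rose, 42.4% and 15.2% beside 15.9% and 17% over all genes (median -0.319). After quantile normalization the median of collagens was -0.221 with 11 lower. The cartilage-type chains Col9a2 and Col9a1 and the chain Col22a1 of tendon junctions fell by 1.47, 1.22 and 1.35, while Col7a1 rose by 1.83, a call lost with normexp background correction. Integrins and laminins fell in 11 of 29 and rose in 5, 37.9% and 17.2% beside 15.9% and 17% over all genes. Of the integrins and laminins 6 were lower without 0 h replicate 2, 7 without 9 h replicate 1 and 7 without 0 h replicate 1 and 9 h replicate 2.

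Tnmd, Kera and Cilp were 3 of the 15 called genes with the largest fall in the ranking used here. It took only genes that all 6 arrays measured above background and whose 0 h and 9 h values did not overlap. Tnmd, the membrane protein tenomodulin, read -1.62, -1.78 and -3.33 on the 0 h arrays and -5.83, -5.40 and -5.48 on the 9 h arrays, a change of -3.33 (SE 0.57, adjusted p = 0.000703), the proteoglycan Kera read -2.25, -1.70 and -2.75 on the 0 h arrays and -4.60, -5.51 and -4.31 on the 9 h arrays, a change of -2.57 (SE 0.32, adjusted p = 6.17e-05), and the matrix protein Cilp read 4.72, 3.999 and 3.81 on the 0 h arrays and 2.10, 1.30 and 1.93 on the 9 h arrays, a change of -2.40 (SE 0.29, adjusted p = 4.73e-05). These 3 were called under all 24 alternatives. Of receptors, the dopamine receptor Drd4 and Mas1, the receptor of angiotensin 1-7, fell by 2.14 and 2.04, calls lost with normexp background correction alone. Cyp1a1, the target of the aryl hydrocarbon receptor, was not well above background at 9 h and was at least 8.78-fold lower. Plppr5, Pcdh20 and Kcnip4 were at least 5.96-fold, 5.67-fold and 4.14-fold lower, and the 4 calls were lost with normexp background correction, that of Pcdh20 also without 0 h replicate 1 and 9 h replicate 2.

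The 0 h array rich in muscle markers was the highest for Tnmd and Cilp above, and also in other large falls. Ostn, a peptide secreted by muscle, read -1.10, -4.56 and -3.65 on the 0 h arrays and -5.10, -5.68 and -6.16 on the 9 h arrays, a change of -2.54 (SE 0.77, adjusted p = 0.0199). Asb2, a ubiquitin ligase subunit of muscle, read 4.03, 0.80 and 1.30 on the 0 h arrays and 0.10, -0.67 and 0.08 on the 9 h arrays, a change of -2.21 (SE 0.68, adjusted p = 0.0218), and Ddit4l, an inhibitor of mTOR signalling, read 1.09, -1.59 and -1.37 on the 0 h arrays and -2.54, -3.62 and -2.63 on the 9 h arrays, a change of -2.31 (SE 0.67, adjusted p = 0.0171). In each, 0 h replicate 1 was the highest array, as it was for the summed muscle level of 2010. Without that array the changes of Ostn, Asb2 and Ddit4l were -1.54, -1.21 and -1.45, and without it and 9 h replicate 2 they were -1.52, -0.96 and -1.11 (adjusted p = 0.132, 0.188 and 0.188 in limma), with no call in either case. The neuropeptide Sst, somatostatin, fell by 2.32, a call that was lost without 0 h replicates 1 or 3 or 9 h replicate 2. With the muscle marker level as a covariate Sst changed by -2.20 (adjusted p = 0.0381 in limma), and without 0 h replicate 1 and 9 h replicate 2 by -1.77 (adjusted p = 0.135 in limma), and it was called in neither.

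Respiratory chain subunits fell in 36 of 77 and rose in 3 (46.8% and 3.9% beside 15.9% and 17% over all genes, median -0.341). Examples are Uqcr11 of complex III (-0.62), Atp5me of the ATP synthase (-0.61) and Ndufa6 of complex I (-0.56). The median of the respiratory chain was -0.193 with 19 lower after quantile normalization, -0.232 with 24 lower without 0 h replicate 1, and -0.253 with 20 lower without 0 h replicate 1 and 9 h replicate 2. With normexp background correction 8 were lower. Against 1 h 8 of the 77 were lower and 4 higher, where 11.1% and 10.9% of all genes were, with a median of -0.0955 beside -0.0683 over all genes. The 0 h and 1 h arrays were scanned on different days. The muscle isoforms Cox8b (-4.33) and Cox6a2 (-1.39) were not called.

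**Figure D5:**
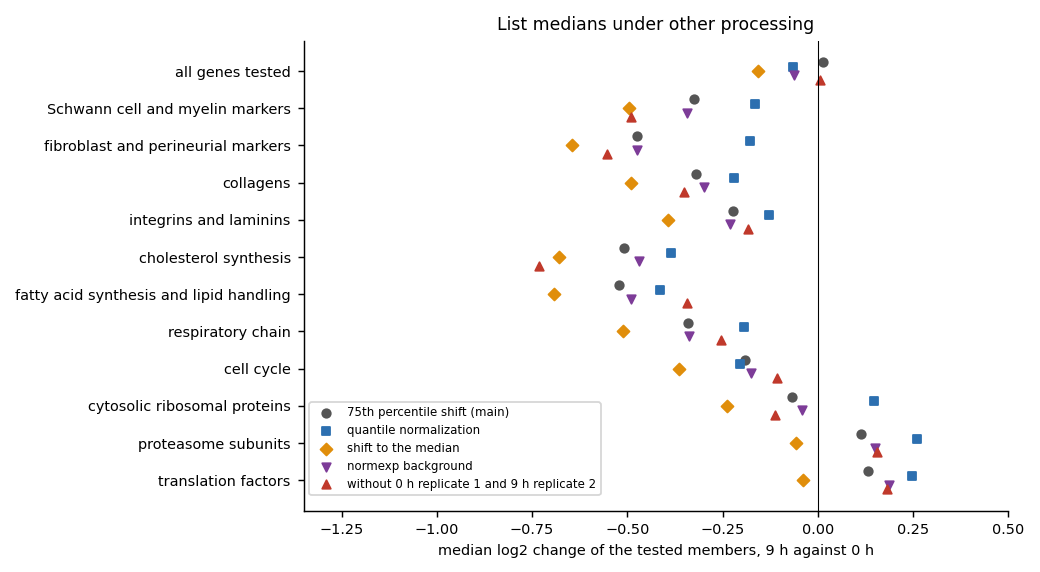
Median log2 change of the tested members of each list at 9 h against 0 h under the values used here (grey circles) and 4 alternatives. The median for cholesterol synthesis stays between -0.384 and -0.732, whereas cytosolic ribosomal proteins lie at -0.0664 and, after quantile normalization, at 0.147, on the other side of 0.

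In some large families of housekeeping genes the direction of the median depended on the scaling. Of 86 cytosolic ribosomal proteins 7 rose and 10 fell (8.14% and 11.6% beside 17% and 15.9% over all genes, median -0.0664), and after quantile normalization the median of cytosolic ribosomal proteins was 0.147 with 27 higher and 1 lower. Proteasome subunits rose in 8 of 37, 21.6% beside 17% over all genes, and fell in 1 (median 0.114), and with arrays shifted to a common median the median of proteasome subunits was -0.0565. Translation factors rose in 24 of 61 and fell in 6 (39.3% and 9.84% beside 17% and 15.9% over all genes, median 0.132), and with that shift the median of translation factors was -0.0383. Against 1 h 30 of the 61 were higher and 3 lower, where 10.9% and 11.1% of all genes were. Eif4a1, the helicase that opens messenger RNAs for the ribosome, rose by 0.90 (SE 0.13, adjusted p = 0.00018) in all 5 of its probes. Of 18 cell cycle genes 3 rose and 7 fell (16.7% and 38.9% beside the same shares), and without 0 h replicate 1 and 9 h replicate 2, 3 genes of the cell cycle were lower. Zinc finger protein genes rose in 19 of 185 and fell in 28, which is 10.3% and 15.1% beside 17% and 15.9% over all genes.

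Among 16 tested genes of the circadian clock 3 rose and 4 fell, which is 18.8% and 25% beside 17% and 15.9% over all genes. Nr1d1, a repressor of the clock, read 0.64, -0.36 and 0.54 on the 0 h arrays and -2.41, -1.32 and -2.79 on the 9 h arrays, a change of -2.45 (SE 0.32, adjusted p = 9.06e-05), and was also lower than at 1 h, at -2.31 (SE 0.32, adjusted p = 0.000377). Its paralog Nr1d2 and the output factor Dbp fell by 1.30 and 1.34, the call of Nr1d2 being lost with normexp background correction, while the D-box repressor Nfil3 and Cry1 rose by 1.72 and 1.13. The core activators Clock (0.48) and Bmal1 (0.25) and the genes Per1 (-0.20) and Per2 (0.06) were not called, and a probe of Npas2 fell while another rose.

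None of 21 interferon response genes was called in limma, beside 32.7% of all genes (median 0.0584). Of the 21, 2 passed an unadjusted P-value of 0.05, and with array weights 4 genes of the interferon response were higher. Values were -0.52 (SE 0.43) for Irf7 and 1.78 (SE 0.60) for Ifit3, which stayed uncalled in 16 of 24 alternatives and was called in the others. Against 1 h, 2 of the 21 were higher and 1 lower, where 10.9% and 11.1% of all genes were. Of 14 complement genes 5 rose and 1 fell, which is 35.7% and 7.14% beside 17% and 15.9% over all genes. The anaphylatoxin receptor C5ar1 rose by 1.67 and factor B, Cfb, by 1.61, and without 0 h replicate 1, or 9 h replicates 1 or 3, 3 genes of complement were higher. Among 102 tested potassium, sodium and calcium channels 19 rose and 20 fell, 18.6% and 19.6% beside 17% and 15.9% over all genes tested. Of the 102, 19 were well above background on every 9 h array but not on every 0 h array. Kcnk2, a channel opened by stretch and lipids, read 2.06, 2.19 and 2.45 on the 0 h arrays and 0.48, 0.64 and 0.51 on the 9 h arrays, a change of -1.69 (SE 0.14, adjusted p = 1.77e-06), whereas the sodium channel subunit Scn3b rose by 1.77 and Kcna6 by 2.13, the latter a call lost with normexp background correction. Axon guidance genes rose in 6 of 59 and fell in 7, which is 10.2% and 11.9% beside 17% and 15.9% over all genes. Of the 59, 6 were well above background on every 9 h array but not on every 0 h array. The semaphorins Sema4a and Sema3d changed by 1.74 and -1.44. The call of Sema4a was lost with normexp background correction.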

How the data were processed

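RNA of 18 samples of rat proximal sciatic nerve, 3 at each of 6 time-points, had been hybridised by the authors to Agilent arrays of 1 colour. The deposited scanner files hold the intensity of each spot as given by Feature Extraction 10.5.1.1, and the gProcessedSignal column, which is background-subtracted, was used. A deposited matrix holds log2 values made by the authors. Its columns have the same lowest, median and highest value and keep the rank of each array's spots, and it served as an alternative. Probe positions in the files are on rn4. Groups were taken from the titles of the samples.

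Control spots and outlier flags were left out, spots of 1 probe were averaged, and log2 of the signal minus the 75th percentile of the array was used, with no offset. Probes entered the test if the scanner software called them well above background on the 3 arrays of any time-point. All 18 arrays were fitted in 1 limma model of 6 time-points (limma 3.58.1, R 4.3.3), and P-values were adjusted by Benjamini-Hochberg over all probes tested. A gene was called when any probe passed, and its values are those of its probe with the highest mean. The second comparison set 2 arrays of 9 h against 3 of 1 h scanned on the same day, on another slide. Of 41012 probes 21307 had a symbol listed in RefSeq tables, by accession or symbol. A gene not well above background on any array of 1 group has only a bound, the ratio of the brighter group's mean to the mean, per array, of the higher of the lowest signal well above background and the gene's own signal. The bound holds for the values used here, and alternatives gave smaller changes in some genes. The number of arrays limits the precision. The fit was run on simulated arrays with independent noise and without effects of scan day, slide or muscle, so that it does not bear on those.

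Genes were named by a rule. It took the 15 largest rises and 15 largest falls without overlap between groups, up to 10 of the largest bounds in each direction, and up to 4 called members of each list in each direction with those that define it. Further list members were chosen after their values were seen, and some members are not reported here. Members and lists were chosen with earlier results of these data known. Alternatives were normexp background correction with an offset of 50, other normalizations and filters, blocks for replicate number, slide and scan day, other fits and thresholds, and each array left out. Fits without 0 h replicate 1 and 9 h replicate 2 and with the muscle marker level as a covariate were added after seeing the data.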

Additional observations from a re-analysis of the deposited data

How the results depend on the processing

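Against 0 h, 8885 genes were called, and the count was 2796 with normexp background correction, 3271 with a change of at least 2-fold and 5756 with an adjusted P-value under 0.01. Against 1 h, 5945 genes were called, and the count was 1217 with normexp background correction, 2516 with only the arrays compared in the fit, 9725 with array weights, 1419 with a change of at least 2-fold and 2976 with an adjusted P-value under 0.01. Leaving out each array in turn gave 6950 to 8291 calls against 0 h and 1883 to 6124 against 1 h, the lowest without 9 h replicate 1, and 3417 without 9 h replicate 2. The other 34 of 44 counts were within 1.5 times. Same-numbered arrays of 0 h and 9 h had correlations of 0.223, 0.222 and -0.232 of their deviations from the group means, so that the numbers do not pair the arrays, and the fit with a replicate block called 9280 genes against 0 h and 5743 against 1 h.

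Of 52 lists, 1145 of 1248 medians under alternatives stayed within the spread between arrays, 95 moved and 8 turned. The median of neuregulin, EGF ligands and receptors was -0.00591 with normexp background correction, -0.00034 with arrays shifted to a common median and -0.154 over genes well above background on all arrays compared. That of cytosolic ribosomal proteins was 0.147 after quantile normalization and 0.129 in the deposited matrix. With the shift to a common median, complement was -0.0525, proteasome subunits -0.0565 and translation factors -0.0383. Of 353 genes followed singly, 317 called, 825 of 8428 values lost the call, 135 of them with normexp background correction, 134 with a 2-fold change and 44 without 0 h replicate 1 and 9 h replicate 2. The changes that turned did so after quantile normalization and in the deposited matrix, to 0.081 and 0.077 for Rps16, 0.0565 and 0.048 for Fth1, 0.0594 and 0.085 for Cryab, and 0.005027 and 0.003403 for Fn1. The cause was not tested. Probes near background set the limit of depth, since 74.3% to 86.4% of spots were well above it.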
